A study of Mus musculus with 12 samples.

Results

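Collagens are the protein-coding genes named Col, a type number, the letter a and a chain number, and 44 of them were found among the 26001 genes listed in the tables of either sex. They comprised 11 fibrillar chains, the 6 basement membrane chains Col4a1 to Col4a6, and 27 chains of other types. The last set held 9 FACIT chains, which coat fibrils, 6 Col6a chains, 4 transmembrane collagens, 3 network-forming chains of types VIII and X, 2 multiplexins, Col7a1, Col26a1 and Col28a1. Of the 44, all were in the female table and 43 in the male table, Col9a1 being listed in females only. Enough reads for a test, a mean of at least 10 normalized counts over the 6 libraries of a sex, were found for 40 members in females and 38 in males.

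The samples were pancreatic islets picked by hand from mice, whose bulk RNA was sequenced as 3 libraries for each of 4 groups. Female knockout and male knockout mice had the genotype Rnf20 F/F; Pdx1 Cre ER, in which tamoxifen activates a Cre recombinase under the Pdx1 promoter and removes Rnf20, a ubiquitin ligase for histone H2B. The matching female control and male control mice are labelled Rnf20 Flox Control, with no Cre named, so that an effect of the Cre transgene cannot be told apart from loss of Rnf20. Every mouse, knockout or control, was gavaged with tamoxifen when 4 weeks old, with 5 doses of 150 ug for each g of body weight. The age at collection and the number of animals behind a library are not given in the sources used here, so p-values measure the spread between libraries, which may be technical. Pdx1 is active in beta cells and in a part of the other islet and duct cells, while endothelial, stellate and Schwann cells do not normally express it.

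A collagen is a trimer of alpha chains that are wound into a triple helix in the endoplasmic reticulum after hydroxylation of their prolines and lysines. Fibrillar types I, III and V give tissue its strength, type IV forms the sheet-like network of basement membranes, and the remaining types decorate, anchor or link these structures. In mouse islets endothelial cells lay down much of the vascular basement membrane that beta cells rest on, and stellate cells, pericytes and fibroblasts make most of the fibrillar matrix.

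The libraries held 19759712 to 56086810 reads assigned to genes. Rnf20 was at 1877, 2000.2 and 1927 normalized counts in female knockouts, against 3589, 4032 and 4339.6 in female controls (log2 fold change -1.04, SE 0.10, adjusted p = 6.35e-04), and at 1519, 1373 and 1436 in male knockouts, against 3812, 3409 and 4058 in male controls (log2 fold change -1.38, SE 0.12, adjusted p = 7.91e-04). Male control 2 was the shallowest library and had reads for 17701 genes, compared with 22287 to 23255 in the other male libraries. Male collagen results are therefore also given without it where a call made with all libraries was lost. The 10 beta cell markers were detected in every library, and their sum was 0.632 times that of controls in female knockouts and 0.648 times in male knockouts. The acinar sum was 0.422 times that of controls in female knockouts, without overlap, and 0.898 times in male knockouts, with overlap. The duct sum was 0.938 times in female knockouts and, without overlap, 0.587 times in male knockouts. In males 5 of the 8 duct markers had a log2 fold change above 0, and their median was 0.34. That median ranged from -0.22 to 0.72 with 1 library left out, so the sum and the median of the male duct list differed in direction. Of 4 delta and PP cell markers, 2 fell in females (1 without female knockout 2, female knockout 3, female control 1 or female control 3) and 3 in males (1 without male knockout 1 or male control 3). Of 11 acinar markers 1 fell in each sex by limma, but in females 8 fell by edgeR, 9 by DESeq2 and 10 by limma without female control 2, with a median log2 fold change of -1.15. By limma 10.7% of all tested genes fell in females and 7.09% in males. Duct, macrophage, lymphocyte and alpha cell lists gave 0 calls by limma in either sex (0 in females and 4 in males at an unadjusted p under 0.05, 0 by edgeR and 2 by DESeq2). With 1 library left out some were called. Alpha cell markers called higher numbered 3 without female control 3 and 1 without male knockout 3. Lymphocyte markers called lower numbered 2 without female knockout 3 and 1 without male control 3. Duct markers called lower numbered 1 without female knockout 1 and 1 without male knockout 2, and 1 macrophage marker was lower without female control 3. In bulk RNA, fewer cells of a type and less RNA per cell cannot be told apart. The submitters had scaled the counts separately for each sex, so levels are compared within a sex only.

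The sequences just before the start sites of 4 collagen genes that rose in both sexes are shown because these genes moved together. The window of Col9a2, the other gene that rose in both sexes, is not shown because it runs into annotated exon. Each line gives up to 250 bases upstream of the start site from RefSeq, assembly GRCm38.p6, on the strand of the gene, which is the plus strand for all 4. The Col8a2 window, at chr4:126286544-126286792, is 1 base shorter because its last base is annotated as exon. The others are at chr17:34038888-34039137 for Col11a2, chr4:63215162-63215411 for Col27a1 and chr4:47207762-47208011 for Col15a1. Capitals mark exact matches to 4 promoter motifs searched on both strands, namely the GC box GGGCGG, the CCAAT box CCAAT, the TATA box TATAAA and the E box CACGTG.
Col8a2: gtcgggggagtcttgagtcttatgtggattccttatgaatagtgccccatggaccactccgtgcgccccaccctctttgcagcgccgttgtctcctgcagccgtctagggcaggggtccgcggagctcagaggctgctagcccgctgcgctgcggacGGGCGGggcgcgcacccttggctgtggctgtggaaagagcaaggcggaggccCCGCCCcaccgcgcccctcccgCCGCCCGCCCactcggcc
Col11a2: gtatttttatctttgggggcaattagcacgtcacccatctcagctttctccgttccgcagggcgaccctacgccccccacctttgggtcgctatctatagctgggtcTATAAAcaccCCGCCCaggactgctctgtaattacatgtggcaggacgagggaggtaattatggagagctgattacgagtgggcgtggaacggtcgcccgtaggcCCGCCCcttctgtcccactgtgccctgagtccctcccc
Col27a1: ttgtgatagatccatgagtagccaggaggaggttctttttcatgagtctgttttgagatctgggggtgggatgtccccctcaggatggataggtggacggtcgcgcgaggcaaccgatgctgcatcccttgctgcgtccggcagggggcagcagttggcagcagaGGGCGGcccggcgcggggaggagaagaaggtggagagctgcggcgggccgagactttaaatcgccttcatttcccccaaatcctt
Col15a1: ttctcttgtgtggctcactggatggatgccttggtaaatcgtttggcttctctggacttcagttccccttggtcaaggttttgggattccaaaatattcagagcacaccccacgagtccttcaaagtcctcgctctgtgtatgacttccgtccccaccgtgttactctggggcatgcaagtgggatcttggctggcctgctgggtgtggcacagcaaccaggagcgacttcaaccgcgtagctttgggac

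The Col8a2 window held 4 GC boxes, at positions -93 to -88, -41 to -36, -19 to -14 and -15 to -10 from the start site, the last pair overlapping. The Col11a2 window held 2 GC boxes, at -133 to -128 and -38 to -33, and the letters TATAAA at -143 to -138. The Col27a1 window held 1 GC box at -85 to -80, and the Col15a1 window held none of the 4 motifs. The Col9a2 window held 2 GC boxes, at -26 to -21 and -14 to -9. A GC box occurred in 32.7% of 32851 RefSeq promoter windows of the same length and in 22 of 38 windows of collagen genes. The letters CCAAT were in 33.8% of all windows and 13 collagen windows, TATAAA in 12.4% and 5, and CACGTG in 6.02% and 0. The collagen windows came from 35 members that matched the table, and their median GC content was 59.0%, against 52.4% over all windows. These matches describe letters in the windows and no binding site.

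Per kilobase of exon, Col4a1 and Col4a2 were by far the most abundant collagen transcripts in islets of every group. Col4a1 was at 1556 normalized counts per kb in female knockouts and 1472 in female controls, and at 1611 in male knockouts and 1118 in male controls. Col4a2 followed, at 1263 per kb in female knockouts and 1076 in female controls, and at 1287 in male knockouts and 818 in male controls. The transmembrane collagen Col13a1, which at muscle helps to stabilise the neuromuscular junction, was the third of the order in controls of both sexes, at 308 per kb in female knockouts and 398 in female controls. In female controls Col15a1, Col18a1, Col6a1 and Col27a1 came next, at 305, 252, 189 and 154 per kb. In male controls Col27a1, Col20a1, Col15a1 and Col18a1 lay close together at 172, 149, 145 and 137 per kb, and their libraries overlapped. Col15a1 took the third place in knockouts of both sexes, at 537 per kb in females and 442 in males.

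Collagen transcripts took a small share of the islet libraries. The share was 0.107% to 0.146% of assigned reads in female knockouts and 0.0804% to 0.106% in female controls. Female shares were only narrowly apart, at 0.1068% in female knockout 2 and 0.1062% in female control 2, and the summed normalized counts overlapped. In males the share was 0.0964% to 0.136% in knockouts and 0.0653% to 0.0773% in controls, without overlap. Summed over the 11 fibrillar chains, normalized counts were 10965 ± 1466 in female knockouts and 6910 ± 1037 in female controls (SD, n = 3 each), and 10901 ± 2336 in male knockouts and 5887 ± 886 in male controls. The fibrillar sums of knockouts lay above those of controls in both sexes. The sum of 8 interstitial chains (Col1a1, Col1a2, Col3a1, Col5a1, Col5a2, Col6a1, Col6a2 and Col6a3) overlapped in both, with ratios of 1.20 in females and 1.63 in males. The sum of the chains that are neither fibrillar nor type IV also overlapped in both, with ratios of 1.17 and 1.37. Col4a1 and Col4a2 together made up 44.6 ± 2.93% of collagen counts in female knockouts and 49.0 ± 1.23% in female controls, and 47.6 ± 3.00% in male knockouts and 48.7 ± 2.55% in male controls.

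In female islets, 7 of the 40 tested collagen genes rose in knockouts and 0 fell. Over all 18142 genes tested in females, 9.90% were called higher and 10.7% lower, and the collagen share was 17.5% higher. The 7 were Col8a2, Col22a1, Col11a2, Col9a2, Col27a1, Col1a1 and Col15a1. Of these, Col22a1 passed the filter on the mean only through its knockout libraries. The median log2 fold change was 0.21 over the 40 members and -0.01 over all tested genes. A gene was called at an adjusted p below 0.05, from limma with Benjamini-Hochberg adjustment over all tested genes, and fold changes are knockout over control on log2 of the normalized count plus 1. The count lower was 0 by limma, also at an unadjusted p under 0.05, and 0 by edgeR and DESeq2. It was 1 without female control 3 (Col13a1).

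In male islets, 9 of the 38 tested collagen genes rose and 0 fell, against 6.08% of 18010 genes called higher and 7.09% called lower. The collagen share was 23.7% higher. The 9 were Col8a2, Col9a2, Col15a1, Col28a1, Col11a2, Col6a3, Col27a1, Col4a2 and Col4a1. The median log2 fold change was 0.51 over the 38 members and 0.06 over all tested genes. At an unadjusted p under 0.05, 2 members were lower by limma (Col13a1 and Col6a6), while the calls lower were 0 by limma, edgeR and DESeq2. The count higher fell to 3 without male knockout 1 and to 5 without male control 3. It was 9 without male control 2 as well, but not for the same genes. Col4a1 and Col6a3 lost their calls there, and other members were called instead. The count lower was 1 without male knockout 2 (Col6a6) and 1 without male control 1 (Col13a1).

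Knockout libraries lay wholly above control libraries for 10 of the 40 members in females, where 19.0% of all tested genes did so, and for 13 of the 38 in males, where 18.6% did. They lay wholly below for 0 members in females and 2 in males (Col6a6 and Col26a1), against 20.3% and 16.9% of all tested genes. The 5 genes Col8a2, Col9a2, Col11a2, Col27a1 and Col15a1 rose in both sexes. They were 5 of the 7 members called higher in females, of the 9 in males and of the 38 tested in both. Among all genes, 701 were called higher in both sexes, of 1796 in females, 1095 in males and 17330 tested in both (4.05%).

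**Figure D1:**
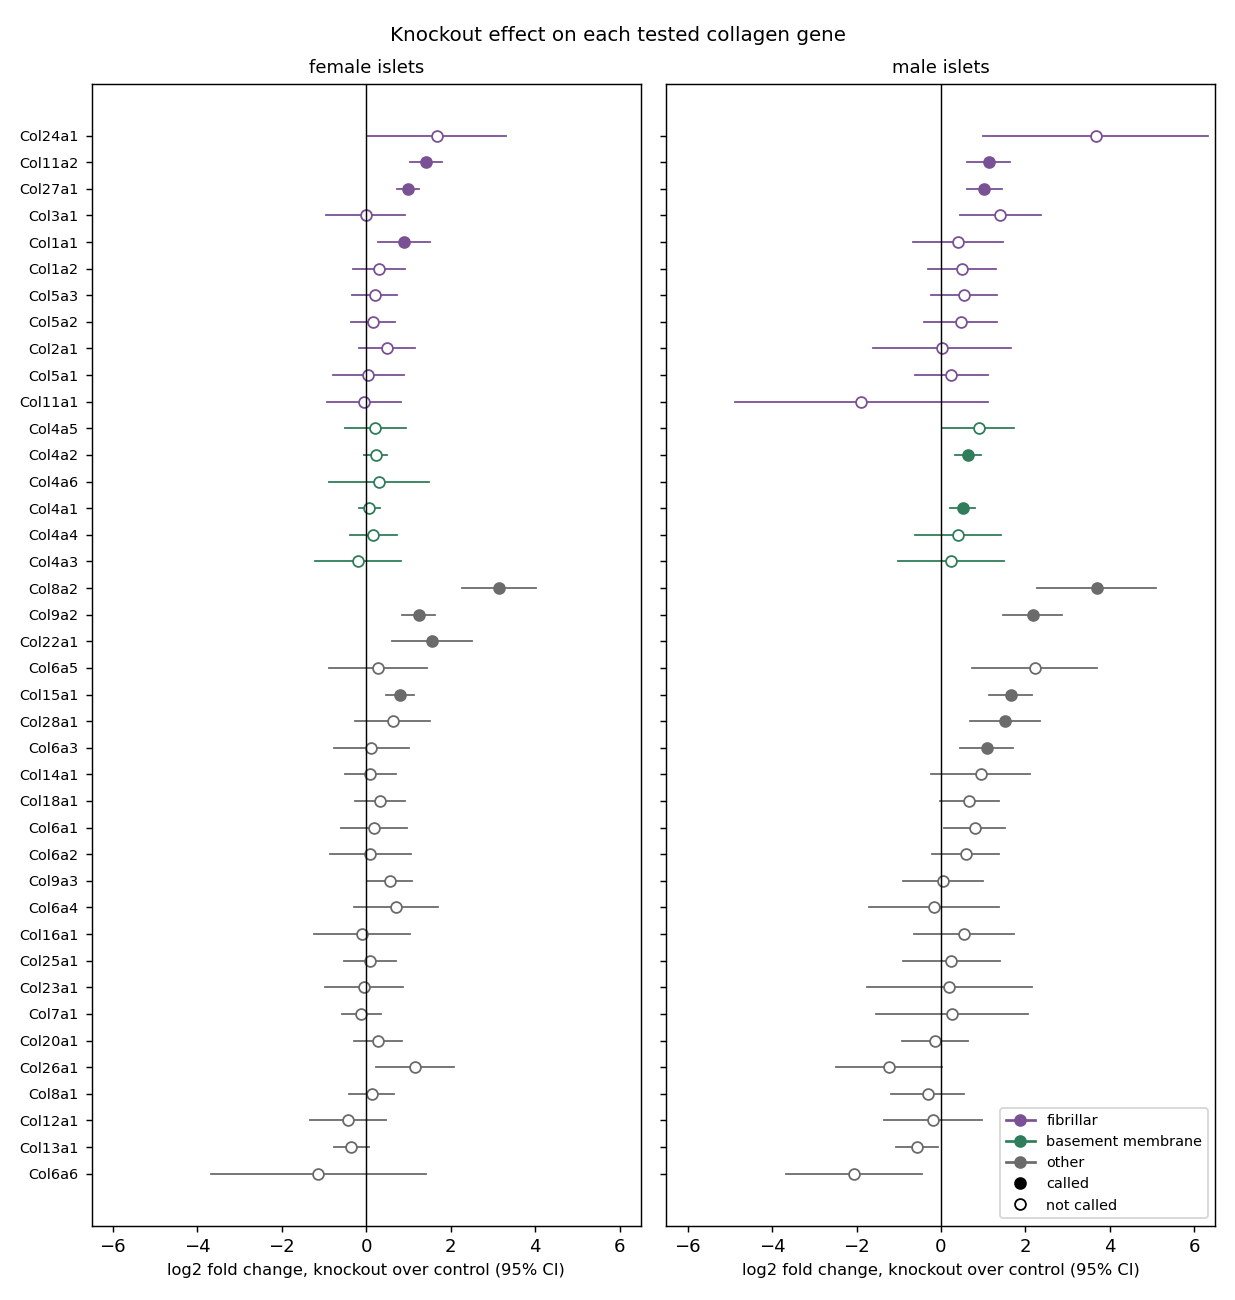
Log2 fold change of each tested collagen gene, knockout over control, with its 95% confidence interval, in female (left) and male (right) islets (3 knockout and 3 control libraries per sex). Filled points passed an adjusted p of 0.05, and all of them, 7 in females and 9 in males, lie right of 0.

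Among the 11 fibrillar collagens, Col11a2 and Col27a1 rose in both sexes and Col1a1 in females, beside 9.90% of all genes in females and 6.08% in males. The median log2 fold change was 0.31 in females and 0.51 in males. Col11a2 (ENSMUSG00000024330, chromosome 17, 34258411 to 34285659, GRCm39) encodes a chain of type XI collagen, which sets the diameter of cartilage fibrils. It was at 1675, 1825 and 1629 normalized counts in female knockouts, against 548, 567 and 828 in female controls, a 2.68-fold difference (log2 fold change 1.42, SE 0.16, adjusted p = 0.00130). In males Col11a2 was at 2139, 2024 and 1439 in male knockouts, against 1043, 625 and 916 in male controls (log2 fold change 1.13, SE 0.22, adjusted p = 0.0123). No knockout library overlapped the controls in either sex, and the male call was lost without male knockout 1 (adjusted p = 0.0638).

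Col27a1 (ENSMUSG00000045672, chromosome 4, 63132241 to 63253228) encodes a fibrillar collagen known from cartilage, and of the fibrillar chains it had the highest mean normalized count in each sex. It was at 3966, 3755 and 4138 normalized counts in female knockouts, against 1752, 1959 and 2289 in female controls (log2 fold change 0.99, SE 0.11, adjusted p = 0.00133). In males Col27a1 was at 4960.0, 5336 and 3502 in male knockouts, against 1847, 2557 and 2309 in male controls (log2 fold change 1.03, SE 0.19, adjusted p = 0.00806). The libraries of the 2 genotypes did not overlap, the difference was 1.99-fold in females and 2.04-fold in males, and the call held under each alternative tried.

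Type I collagen, the main protein of scar and bone, is a trimer of a pair of Col1a1 chains and 1 Col1a2 chain. Col1a1 (ENSMUSG00000001506, chromosome 11, 94827050 to 94843868) stood at 1728, 906 and 1170.2 normalized counts in female knockouts, against 717, 781 and 499.7 in female controls (log2 fold change 0.90, SE 0.26, adjusted p = 0.0492). Every female knockout library exceeded every control, but the call was lost when any library except female knockout 2 was left out (adjusted p up to 0.121). It was also lost with no filter, with the replicate number as a block and in the fit of the 12 libraries (limma adjusted p up to 0.205). In males Col1a1 overlapped, at 1056, 1247 and 418 in male knockouts, against 850.4, 788 and 352 in male controls (log2 fold change 0.41, SE 0.46, adjusted p = 0.604). Its partner Col1a2 (ENSMUSG00000029661, chromosome 6, 4504814 to 4541544) passed in neither sex, at 1556, 748 and 1078 in female knockouts, against 824, 1045 and 769 in female controls (log2 fold change 0.31, SE 0.26, adjusted p = 0.459), and with a log2 fold change of 0.51 in males (95% interval -0.30 to 1.31).

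Col3a1, the type III chain of vessels and soft tissue, was not called in females, at 1289, 853 and 1782 in female knockouts, against 1162, 2029.6 and 845 in female controls (log2 fold change -0.01, SE 0.39, adjusted p = 0.992). In males it was at 1784, 1008 and 1336 in male knockouts, against 1041, 365 and 337 in male controls (log2 fold change 1.41, SE 0.42, adjusted p = 0.0599). Male libraries did not separate fully, since male knockout 2 lay below male control 1, and DESeq2 called the male difference where limma with all libraries did not. With 1 library left out, the male log2 fold change of Col3a1 ranged from 1.12 to 1.93 (limma adjusted p 0.00289 to 0.209). The call thus depended on which library was left out. The type V chains, which start type I fibrils, passed in neither sex. Col5a1 had a log2 fold change of 0.05 in females and 0.25 in males, and Col5a2 of 0.16 and 0.47, and Col5a3 was not called either.

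The remaining fibrillar chains were scarce. Col24a1, a fibrillar collagen of developing bone, was at 74.8, 156 and 19.2 normalized counts in female knockouts, against 17.6, 24.2 and 14.5 in female controls (log2 fold change 1.68, SE 0.70, adjusted p = 0.139), and at 112, 125 and 86.5 in male knockouts, against 17.7, 31.9 and 0 in male controls (log2 fold change 3.66, SE 1.18, adjusted p = 0.0759). Each knockout library of males exceeded each control, 1 of which had no Col24a1 read, while female knockout 3 lay among the controls. DESeq2 called Col24a1 higher in both sexes. With 1 library left out, its limma adjusted p ranged from 0.0106 to 0.322 in females and from 0.0452 to 0.219 in males. The log2 fold changes ranged from 1.01 to 2.49 in females and from 2.12 to 4.64 in males. Col2a1, the main collagen of cartilage, and Col11a1, its type XI partner chain, passed in neither sex. Col2a1 was at 47.8, 27.7 and 36.7 in female knockouts, against 25.9, 25.3 and 25.7 in female controls, and Col11a1 at 16.5, 12.2 and 27.5 in female knockouts, against 15.5, 17.9 and 22.4 in female controls. In females the 95% interval of the log2 fold change was -0.16 to 1.15 for Col2a1 and -0.92 to 0.82 for Col11a1, and in males it spanned -1.60 to 1.66 and -4.88 to 1.10.

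Markers of the cells that make fibrillar collagen were measured beside these genes. The 15 markers of stellate cells, pericytes and fibroblasts summed to 11649 to 17673 normalized counts in female knockouts and 12710 to 18983 in female controls. In males the sum was 10429 to 12477 in knockouts and 8578 to 11268 in controls. The sums of knockouts and controls overlapped in both sexes, with ratios of 1.02 in females and 1.17 in males. Of the markers tested, 0 of 15 rose or fell in females (0 at an unadjusted p under 0.05, and 0 by edgeR and DESeq2), beside 20.6% of all genes. In males 1 of 14 rose, the pericyte receptor Pdgfrb, beside 6.08% of all genes. The male count was 0 without any 1 male knockout, and DESeq2 called 3 higher and 1 lower in males. Tagln was at 0 in some male library.

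The 5 genes that rose in both sexes were Col11a2 and Col27a1, described above, and a network-forming chain, a FACIT chain and a multiplexin. Col8a2 (ENSMUSG00000056174, chromosome 4, 126180586 to 126208123) encodes a chain of type VIII collagen, a short-chain network of the cornea's Descemet membrane and of vessel walls. It had the largest difference of any called member in both sexes. Col8a2 was at 138, 167 and 153 normalized counts in female knockouts, against 19.7, 8.42 and 25.7 in female controls, 8.86-fold (log2 fold change 3.15, SE 0.38, adjusted p = 0.00162). In males Col8a2 was at 313, 182 and 105 in male knockouts, against 6.74, 14 and 23.7 in male controls, 12.9-fold (log2 fold change 3.69, SE 0.62, adjusted p = 0.00651). It stood at 25.7 normalized counts or fewer in each control library and at 105 or more in each knockout library, and the male call was lost without male knockout 1 (adjusted p = 0.0584).

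Its partner Col8a1 (ENSMUSG00000068196, chromosome 16, 57444621 to 57575100), named after its values were seen, did not pass in either sex. Col8a1 was at 186, 128 and 163 normalized counts in female knockouts, against 137, 186 and 116 in female controls (log2 fold change 0.13, SE 0.23, adjusted p = 0.749). In males Col8a1 was at 71.2, 89.7 and 64.7 in male knockouts, against 98.6, 108 and 75.4 in male controls (log2 fold change -0.31, SE 0.38, adjusted p = 0.627). The number of Col8a2 counts per Col8a1 count was 0.744, 1.30 and 0.944 in female knockouts, against 0.150, 0.0503 and 0.228 in female controls. In males this ratio was 4.36, 2.02 and 1.61 in knockouts, against 0.0777, 0.138 and 0.323 in controls. The 2 chains can each form trimers alone. Col10a1, the other gene of the class and a mark of hypertrophic cartilage, had too few reads to be tested.

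Col9a2 (ENSMUSG00000028626, chromosome 4, 120896582 to 120912519) encodes a chain of type IX collagen, a FACIT that sits on cartilage fibrils as a trimer of Col9a1, Col9a2 and Col9a3. It was at 249, 309.8 and 332 normalized counts in female knockouts, against 122, 126 and 122 in female controls (log2 fold change 1.25, SE 0.17, adjusted p = 0.00238). In males Col9a2 was at 445, 382 and 453 in male knockouts, against 94.4, 67.9 and 129 in male controls, a 4.49-fold difference (log2 fold change 2.17, SE 0.31, adjusted p = 0.00347). The lowest knockout library of each sex held more than the highest control library of that sex, and the calls held under each alternative tried. Col9a3, named after its values were seen, had a log2 fold change of 0.56 in females (adjusted p = 0.127) and 0.05 in males (0.954). Col9a1 had at most 4.17 normalized counts in any female library. The ratio of Col9a2 to Col9a3 was 1.90, 1.86 and 2.95 in female knockouts, against 1.42, 1.59 and 1.10 in female controls, and 3.67, 3.18 and 7.40 in male knockouts, against 0.983, 0.600 and 1.79 in male controls.

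Col15a1 (ENSMUSG00000028339, chromosome 4, 47208161 to 47313167) encodes a multiplexin, a collagen with interrupted helices that links basement membranes to the fibrils beneath them. It was at 4255, 2902 and 3072 normalized counts in female knockouts, against 1892, 1963 and 1957 in female controls (log2 fold change 0.79, SE 0.14, adjusted p = 0.00750). In males Col15a1 was at 2470.1, 3365 and 2578 in male knockouts, against 1274, 740.5 and 737 in male controls, 3.13-fold (log2 fold change 1.65, SE 0.23, adjusted p = 0.00324). Knockout and control libraries were apart in both sexes, and the calls held under each alternative tried. The other multiplexin, Col18a1, whose end fragment is endostatin, was at 2785, 1487 and 2509 in female knockouts, against 1501, 2163 and 1633 in female controls (log2 fold change 0.32, SE 0.25, adjusted p = 0.420). In males Col18a1 was at 1318, 2604 and 1021 in male knockouts, against 1129, 928 and 832 in male controls (log2 fold change 0.67, SE 0.31, adjusted p = 0.194), and the libraries of the genotypes overlapped in both sexes.

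**Figure D2:**
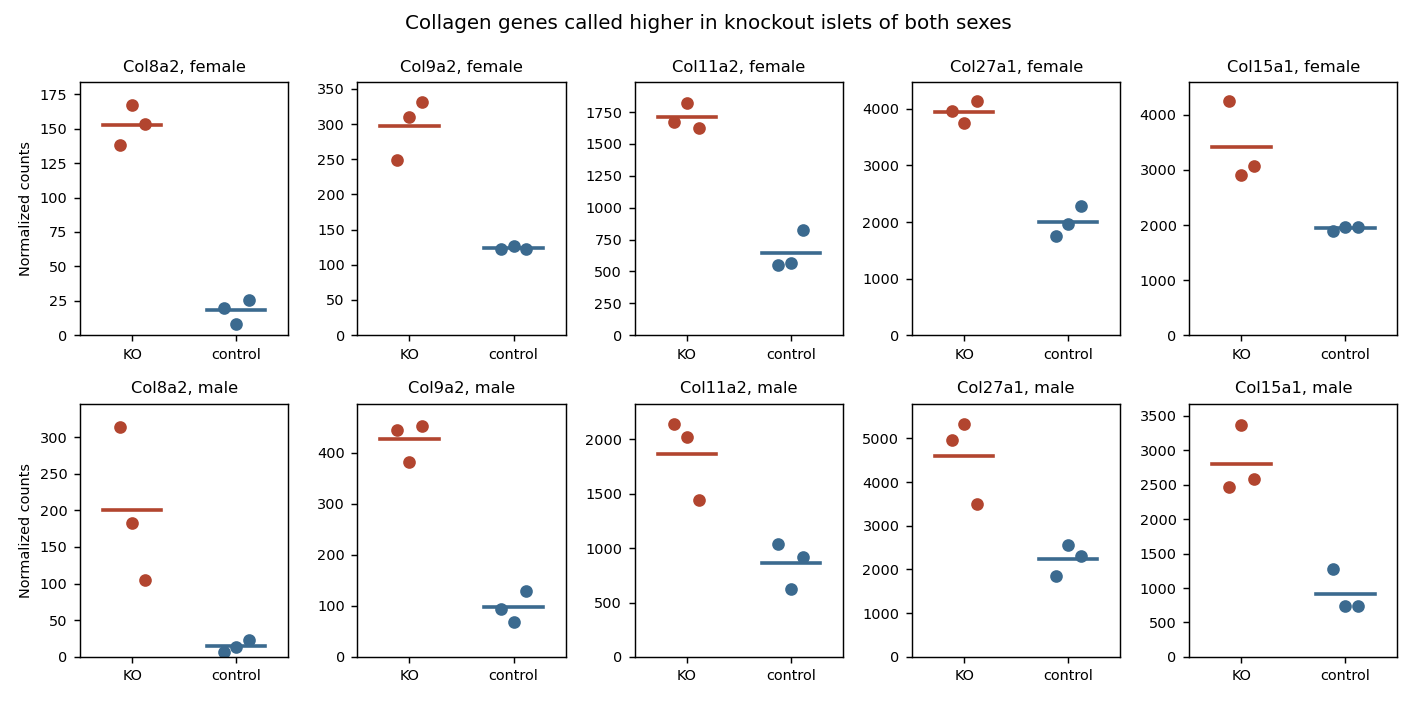
Normalized counts of the 5 collagen genes that rose in both sexes, in 3 knockout (left, red) and 3 control (right, blue) libraries of females (top) and males (bottom). Points are libraries and lines are means. In every panel the lowest knockout library lies above the highest control library.

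**Figure D3:**
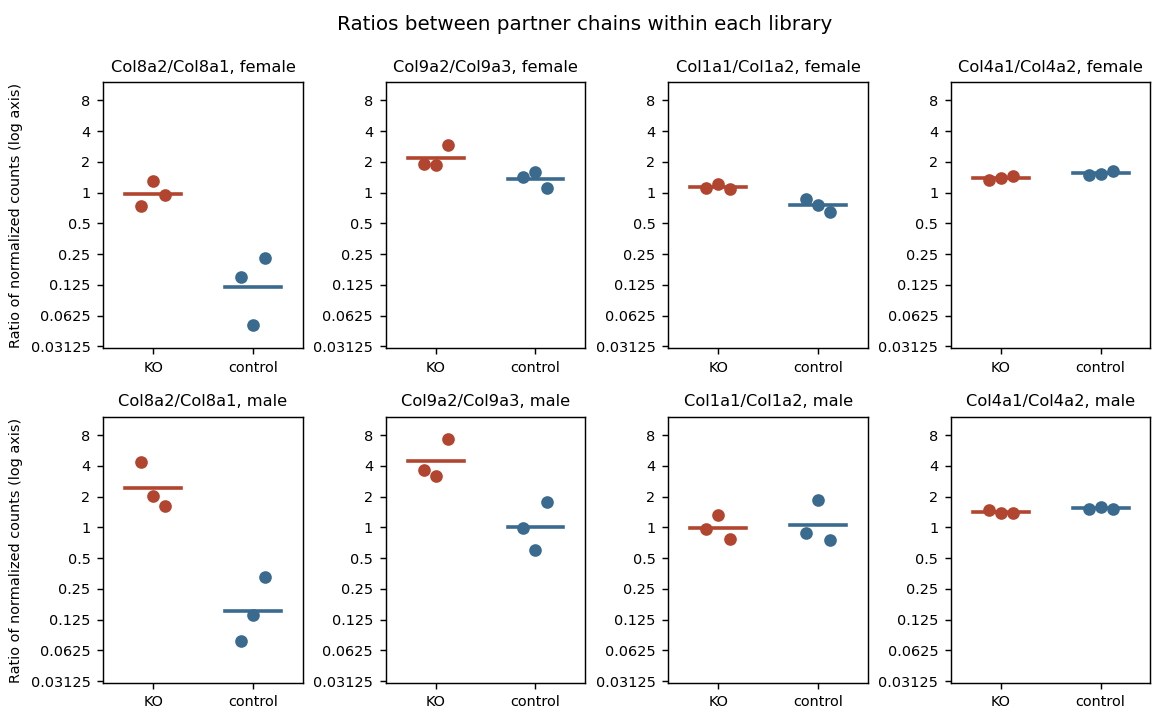
Ratio of normalized counts of partner chains within each library, on a log axis, for knockouts (left, red) and controls (right, blue) of females (top) and males (bottom). Points are libraries and lines are geometric means. The ratio of Col8a2 to Col8a1 lies between 0.744 and 4.36 in knockouts and between 0.0503 and 0.323 in controls.

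Type IV collagen is the sheet of basement membranes, and its chains are encoded as head-to-head gene pairs. Of the 6 chains, 0 of 6 tested in females rose, beside 9.90% of all genes, and 2 of 5 tested in males, beside 6.08%. The female count was 0 by limma, also at an unadjusted p under 0.05, and 0 by edgeR and DESeq2. The median log2 fold change was 0.19 in females and 0.52 in males. Col4a1 (ENSMUSG00000031502, chromosome 8, 11248423 to 11362826) and Col4a2 (ENSMUSG00000031503, chromosome 8, 11362805 to 11499287) form the trimer found in nearly every basement membrane.

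Col4a1 was at 11762, 13988 and 10326 normalized counts in male knockouts, against 8581, 8337 and 8114 in male controls (log2 fold change 0.52, SE 0.13, adjusted p = 0.0346). Col4a2 was at 7939, 10157 and 7452 in male knockouts, against 5680.5, 5217 and 5337 in male controls (log2 fold change 0.64, SE 0.14, adjusted p = 0.0170). Knockout and control libraries of males were apart for both genes, by 1.43-fold and 1.56-fold. The Col4a1 call was lost by edgeR (adjusted p = 0.0528) and without any library other than male knockout 3 (up to 0.122), including male control 2 (0.0652). The Col4a2 call was lost without male knockout 1 or male control 3 (0.0531 to 0.0593).

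In females Col4a1 was at 12952, 10631 and 11255 in female knockouts, against 10386, 11861 and 10707 in female controls (log2 fold change 0.08, SE 0.11, adjusted p = 0.660), and Col4a2 at 9689, 7586 and 7811 in female knockouts, against 7036, 7813 and 6524 in female controls (log2 fold change 0.23, SE 0.12, adjusted p = 0.236). The libraries of the genotypes overlapped for both genes. The 95% intervals of the female log2 fold change, -0.17 to 0.32 for Col4a1 and -0.05 to 0.51 for Col4a2, bound what these libraries can show. The start sites of Col4a1 and Col4a2 lie 21 bases apart in RefSeq on GRCm38.p6, on opposite strands, and the gene spans overlap by a few bases in the coordinates of the files. The strand setting of the counting is not given in the sources used here, so reads at that junction cannot be told apart between the genes.

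Endothelial markers moved beside these chains. The 12 endothelial markers summed to 23716 to 32445 normalized counts in male knockouts and 17451 to 20325 in male controls, a ratio of 1.49. The summed Col4a1 and Col4a2 counts had a ratio of 1.49 as well, at 17779 to 24145 in male knockouts and 13451 to 14262 in male controls. Of the 12 markers, Pecam1, Kdr, Plvap, Tek and Emcn rose in males, where 6.08% of all genes did. The count was 2 to 4 when a library was left out, lowest without male knockout 2, male knockout 3 or male control 3. In females the endothelial sum was 26048 to 33820 in knockouts and 25073 to 28278 in controls, a ratio of 1.10, and 0 of 12 markers were called by limma (1 at an unadjusted p under 0.05, 0 by edgeR and 1 by DESeq2). No endothelial marker was at 0 in any library, and the part of endothelial RNA in the Col4a1 and Col4a2 result was not tested.

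The minor type IV chains make the network of the kidney filter (Col4a3, Col4a4, Col4a5) and of smooth muscle (Col4a5, Col4a6). Col4a5 was at 174, 103 and 133 in male knockouts, against 85.1, 65.9 and 65.3 in male controls (log2 fold change 0.89, SE 0.37, adjusted p = 0.153), apart in males but not called. In females Col4a5 had a log2 fold change of 0.22, and Col4a6 of 0.31. Col4a3 had -0.19 in females and 0.24 in males, and Col4a4 0.17 and 0.39. These 4 chains were scarce, with at most 174 normalized counts in any library, and Col4a6 had too few reads for a test in males.

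**Figure D4:**
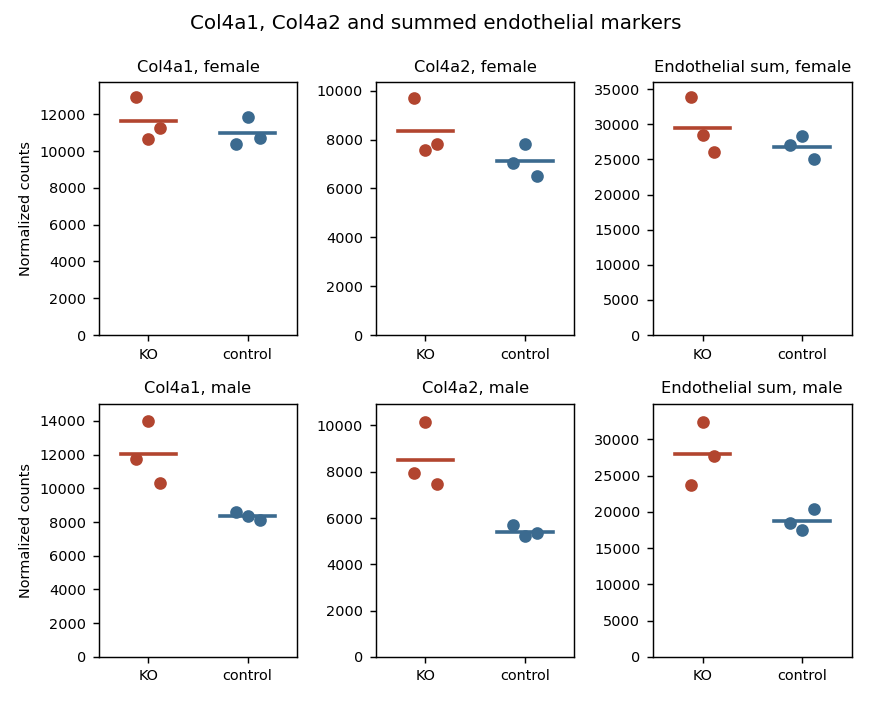
Normalized counts of Col4a1 and Col4a2 and the sum of 12 endothelial markers in 3 knockout (left, red) and 3 control (right, blue) libraries of females (top) and males (bottom). Points are libraries and lines are means. In males the knockout libraries lie above the controls in all 3 panels, and in females they overlap.

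Type VI collagen forms beaded microfilaments between basement membranes and fibrils, from Col6a1, Col6a2 and another of its chains. Of 6 Col6a genes, 0 of 6 were called in females (0 at an unadjusted p under 0.05 by limma, 0 by edgeR and DESeq2), beside 20.6% of all genes. In males 1 of 6 rose, beside 6.08% of all genes. Col6a3 was at 887, 724 and 614 normalized counts in male knockouts, against 518, 255 and 311 in male controls (log2 fold change 1.08, SE 0.28, adjusted p = 0.0347). The male libraries were apart for Col6a3, but the call was lost without male knockout 1, male knockout 2, male control 2 or male control 3 (adjusted p 0.0658 to 0.156). In females Col6a3 was at 1167, 549 and 1370.2 in female knockouts, against 919.5, 1119 and 662 in female controls and overlapped (log2 fold change 0.12, SE 0.37, adjusted p = 0.856).

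Col6a1 and Col6a2 were not called in males, at log2 fold changes of 0.80 (adjusted p = 0.141) and 0.58 (0.311), nor in females, at 0.19 and 0.10. The chains that can take the place of Col6a3 differed among themselves. Col6a5 was at 149, 97 and 84.8 in male knockouts, against 38.8, 7.98 and 33.7 in male controls (log2 fold change 2.22, SE 0.66, adjusted p = 0.0552). Col6a6 was at 127, 928 and 218 in male knockouts, against 1193, 1109.7 and 1416 in male controls (log2 fold change -2.06, SE 0.68, adjusted p = 0.101), wholly below the controls, and varied widely in females, at 182, 158 and 744 in female knockouts, against 158, 986 and 1442 in female controls. Neither passed the threshold by limma with all libraries, and Col6a5 in males did so by DESeq2. With 1 library left out, the male log2 fold change of Col6a6 ranged from -2.89 to -1.45 (limma adjusted p 0.00204 to 0.295). It was called lower without male knockout 2, the knockout library with the highest value. The male log2 fold change of Col6a5 ranged from 1.54 to 2.61 (limma adjusted p 0.0366 to 0.238). Col6a4 was not called in either sex.

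Among the FACIT chains, 2 of 7 tested rose in females (Col9a2 and Col22a1), beside 9.90% of all genes, and 1 of 6 in males (Col9a2), beside 6.08%. Col22a1, a collagen of tissue junctions such as that of muscle and tendon, was scarce, at 25.2, 25.4 and 17.5 in female knockouts, against 11.4, 5.26 and 5.59 in female controls (log2 fold change 1.55, SE 0.41, adjusted p = 0.0319). Its mean was 22.7 in female knockouts and 7.41 in female controls, so Col22a1 passed the filter of 10 only through the knockouts. The call is limited by this. The female libraries were apart, but the call was lost without any library except female control 1, by DESeq2 and with the replicate number as a block (adjusted p 0.0540 to 0.117). In males Col22a1 was at 12.8, 25.4 and 8.74 in male knockouts, against 7.59, 0 and 2.87 in male controls and had too few reads for a test. The other tested FACIT chains, Col12a1 and Col14a1, which bind type I fibrils, Col16a1 and Col20a1, were not called, with log2 fold changes from -0.42 to 0.29 in females and from -0.19 to 0.94 in males.

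Col28a1, a collagen with von Willebrand factor domains that is known from the nerve sheath, rose in males. It was at 225, 237 and 264 normalized counts in male knockouts, against 54.8, 126 and 85.4 in male controls (log2 fold change 1.51, SE 0.37, adjusted p = 0.0271), and the male libraries were apart. The call held without male control 2 and was lost without any of the other 5 libraries (adjusted p 0.0621 to 0.105). In females Col28a1 was at 97.4, 137 and 253 in female knockouts, against 122, 113 and 66 in female controls and overlapped (log2 fold change 0.63, SE 0.38, adjusted p = 0.295). The 11 Schwann cell markers summed to 7555 to 8576 normalized counts in male knockouts and 6807 to 7686 in male controls, overlapping, and to 8519 to 9131 in female knockouts and 6939 to 7879 in female controls, apart. Of these, 3 of 11 rose in each sex, beside 9.90% of all genes in females and 6.08% in males, and 0 were called lower. Most of the list did not follow, since only 5 of 11 markers in females and 4 in males had values above 0. In each sex 2 markers lay wholly below the controls. The list's medians on the log2 scale were -0.002 for females and -0.026 for males. With 1 library left out, the male median ranged from -0.32 to 0.49. S100b was at 0 in some male library, and the part of Schwann cell RNA in the Col28a1 result was not tested.

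The transmembrane collagens and Col7a1 did not pass in either sex with all libraries in the fit. Col13a1 was at 1672, 1280.0 and 1304 normalized counts in female knockouts, against 2219, 1871 and 1407 in female controls (log2 fold change -0.35, SE 0.18, adjusted p = 0.212). In males Col13a1 was at 1044, 1299.6 and 836 in male knockouts, against 1153, 1802 and 1772 in male controls (log2 fold change -0.57, SE 0.22, adjusted p = 0.129), with male knockout 2 among the controls. Col7a1, the anchoring fibril of skin, and the transmembrane Col23a1 and Col25a1 had log2 fold changes from -0.12 to 0.09 in females and from 0.19 to 0.26 in males. Col10a1, Col17a1 and Col19a1 had too few reads to be tested in either sex, with at most 11.6 normalized counts in any library.

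The balance of partner chains within a library needs no scaling between libraries, and 6 ratios were compared with a two-sided exact permutation test. With 3 libraries against 3, the smallest p that the test can give is 0.10. In females there were 1.11, 1.21 and 1.09 Col1a1 counts per Col1a2 count in knockouts, against 0.870, 0.747 and 0.650 in controls. The knockouts were wholly above the controls (log2 difference 0.60, exact permutation p = 0.10, 0.20 after Benjamini-Hochberg adjustment over the 6 tests). In males the ratio was 0.964, 1.31 and 0.770 in knockouts, against 0.871, 1.84 and 0.746 in controls, and overlapped (log2 difference -0.10, exact permutation p = 0.90).

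The ratio of Col4a1 to Col4a2 was slightly lower in knockouts of both sexes. It was 1.34, 1.40 and 1.44 in female knockouts, against 1.48, 1.52 and 1.64 in female controls, and 1.48, 1.38 and 1.39 in male knockouts, against 1.51, 1.60 and 1.52 in male controls. The libraries did not overlap in either sex, with log2 differences of -0.15 in females and -0.13 in males (exact permutation p = 0.10 and 0.20 after adjustment, in each sex). The ratio of Col6a1 to Col6a2 overlapped in both sexes (log2 difference 0.09 in females, exact permutation p = 0.50, and 0.21 in males, p = 0.30).

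Whether the knockout acted differently on collagens in the 2 sexes was tested as a sex by genotype interaction in a fit of the 12 libraries. Of 38 members tested in both sexes, 0 were called by limma and 0 by edgeR, with 7 at an unadjusted p under 0.05 by limma. Over all 17330 genes, 0.110% were called. The male log2 fold change exceeded the female one for 27 of the 38 members (71.1%) and for 56.7% of all genes, with a median difference of 0.33 and 0.06. Among members called in 1 sex or both, Col15a1 had the lowest p of the difference, with a male minus female value of 0.85 (SE 0.30, adjusted p = 0.460). For Col4a1 the difference was 0.44 (SE 0.17, adjusted p = 0.509), so that a call in males alone is not shown to be a sex difference.

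Of genes for building collagen, P3h1 and Ppib fell in both sexes. The list held 32 genes for hydroxylation, folding, trimming and cross-linking, of which 30 were tested in females and 29 in males. In females 4 fell (P3h1, Ppib, Colgalt1 and Bmp1) and 1 rose (Colgalt2), and in males 3 fell (P3h1, P4ha1 and Ppib) and 0 rose (2 at an unadjusted p under 0.05; 0 by edgeR and DESeq2). P3h1, the collagen prolyl 3-hydroxylase, was at 689, 612 and 627 normalized counts in female knockouts, against 1248, 1140.1 and 1047 in female controls (log2 fold change -0.83, SE 0.11, adjusted p = 0.00230), and at 497, 573 and 360.0 in male knockouts, against 992, 1058 and 1275 in male controls (log2 fold change -1.23, SE 0.21, adjusted p = 0.00652). Its libraries were apart in both sexes and its calls held under each alternative tried. Over all tested genes 10.7% fell in females and 7.09% in males, so the list's counts lie near that background. The female count lower was 1 without female knockout 2, and the Colgalt2 call was lost whichever library was left out. The median log2 fold change of the list was -0.18 in females and -0.01 in males.

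Ppib, a prolyl isomerase in the same complex as P3h1, was at 1218, 1085 and 1126 normalized counts in female knockouts, against 2231, 1715 and 1533 in female controls (log2 fold change -0.66, SE 0.14, adjusted p = 0.0154), and at 799, 759 and 868 in male knockouts, against 1303, 1487 and 1092 in male controls (log2 fold change -0.67, SE 0.16, adjusted p = 0.0262). P4ha1, the catalytic subunit of the prolyl 4-hydroxylase that stabilises the helix, was at 1628, 2018 and 1845 in male knockouts, against 2981, 4281 and 5674 in male controls (log2 fold change -1.19, SE 0.22, adjusted p = 0.00844). In females P4ha1 was at 4582, 5013 and 2780.4 in female knockouts, against 5039, 7105 and 5309.9 in female controls (log2 fold change -0.52, SE 0.24, adjusted p = 0.174), with lower values in each knockout library. The Ppib call was lost without female knockout 2 in females (adjusted p = 0.0665) and without male knockout 1, male knockout 2 or male control 1 in males. Serpinh1, the collagen chaperone HSP47, was not called, with a log2 fold change of 0.03 in females and 0.43 in males, nor was the cross-linking enzyme Lox, at 0.43 and 0.69. Beta cell markers moved in the same direction, with 8 of 10 lower and 1 higher in females and 6 of 10 lower and 1 higher in males. The share of all genes called lower was 10.7% in females and 7.09% in males. The part of beta cell RNA in these differences was not tested.

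Of collagen receptors, Adgrg1 and Ddr1 rose in both sexes. Adgrg1, the adhesion receptor GPR56 that binds type III collagen and is abundant in islets, was at 11625, 12899 and 11134 normalized counts in female knockouts, against 5915, 5413 and 5411 in female controls (log2 fold change 1.09, SE 0.09, adjusted p = 4.62e-04). In males Adgrg1 was at 13947, 14102 and 11728 in male knockouts, against 6257, 5666 and 7493 in male controls (log2 fold change 1.04, SE 0.14, adjusted p = 0.00296). Ddr1, a receptor tyrosine kinase for fibrillar and type IV collagen, was at 8977, 10652 and 9985 in female knockouts, against 5545, 4812 and 5933 in female controls (log2 fold change 0.86, SE 0.11, adjusted p = 0.00202), and at 11264, 11468 and 10113 in male knockouts, against 6499.7, 6351 and 7613 in male controls (log2 fold change 0.69, SE 0.12, adjusted p = 0.00765). All 4 calls held under each alternative tried, and knockout libraries were about 1.61-fold to 2.13-fold higher. Of the 10 receptors tested, 2 rose in females, beside 9.90% of all genes, and 3 in males, beside 6.08% (5 by DESeq2). In either sex 0 fell (2 in females and 0 in males at an unadjusted p under 0.05, and 0 by edgeR and DESeq2), but 1 fell without female control 1. The median log2 fold change of the list was -0.10 in females, with 3 of 10 above 0, and 0.85 in males, with 9 of 10 above 0.

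The third male call was Cd36, which binds collagen and fatty acids, at 258, 240.2 and 465 normalized counts in male knockouts, against 147, 119.7 and 118 in male controls (log2 fold change 1.26, SE 0.33, adjusted p = 0.0348). It was lost without any library except male knockout 2. In females Cd36 was at 169, 157 and 278 in female knockouts, against 322, 323 and 216 in female controls (log2 fold change -0.53, SE 0.26, adjusted p = 0.197).

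**Figure D5:**
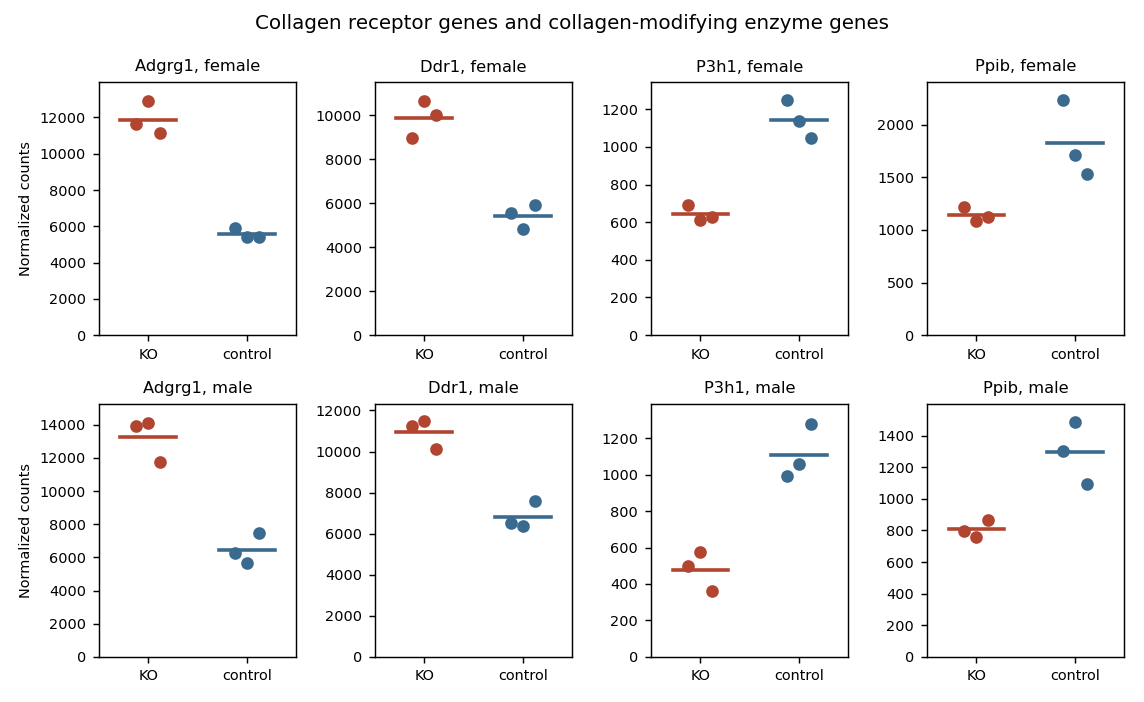
Normalized counts of the collagen receptor genes Adgrg1 and Ddr1 and of the collagen-modifying enzyme genes P3h1 and Ppib in 3 knockout (left, red) and 3 control (right, blue) libraries of females (top) and males (bottom). Points are libraries and lines are means. The receptors are higher and the enzymes lower in every knockout library of each sex.

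Of 17 non-collagen genes of basement membranes, 2 rose in females (Lama1 and Pxdn), beside 9.90% of all genes, and 4 in males (Lama4, Hspg2, Lamb1 and Sparc), beside 6.08%. Hspg2, the heparan sulfate proteoglycan perlecan, was at 2813, 3786 and 2868 normalized counts in male knockouts, against 1782, 1637 and 1859 in male controls (log2 fold change 0.83, SE 0.15, adjusted p = 0.00734), apart and called under each alternative tried. Lama4, the laminin chain of vessels, was at 920.2, 1317 and 1147 in male knockouts, against 513, 738 and 566 in male controls (log2 fold change 0.90, SE 0.20, adjusted p = 0.0197). The Lama4 call was lost without male knockout 2, male knockout 3, male control 1 or male control 3. The calls higher numbered 0 to 1 in females and 1 to 4 in males when a library was left out, with 0 without female knockout 1, female knockout 3, female control 1 or female control 2, and 1 without male knockout 2, male control 1 or male control 3.

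The median log2 fold change of these 17 genes was 0.26 in females and 0.52 in males, beside medians of 0.19 and 0.52 for the type IV chains. Sparc, which binds collagen and is made by endothelial and stromal cells, had a log2 fold change of 0.54 in males (adjusted p = 0.0494) and 0.17 in females (0.297). The male Sparc call was lost by edgeR and without any library except male knockout 3.

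Fibrillar matrix genes other than collagens gave few calls. Of 20 genes, 1 rose in females (Fbln5), beside 9.90% of all genes, and 2 in males (Sparcl1 and Thbs1), beside 6.08%, and 0 fell in either (0 in females and 1 in males at an unadjusted p under 0.05; 0 by edgeR in both, and 0 in females and 1 in males by DESeq2). Sparcl1, a SPARC relative found on vessels, was at 3727, 6361 and 3247 normalized counts in male knockouts, against 1091, 1099.7 and 1248 in male controls (log2 fold change 1.89, SE 0.23, adjusted p = 0.00203). Thbs1, the matrix protein thrombospondin-1 that can activate latent TGF-beta, was at 11935, 12298 and 10285 in male knockouts, against 6707, 6756 and 5570.2 in male controls (log2 fold change 0.86, SE 0.13, adjusted p = 0.00425). Both were apart in males and called under each alternative tried. Fbln5, an elastic fibre protein, was at 606, 537 and 373 in female knockouts, against 264, 365 and 236 in female controls (log2 fold change 0.80, SE 0.23, adjusted p = 0.0411). The Fbln5 call did not hold without female knockout 1, female knockout 2, female control 1 or female control 3. In males Fbln5 was at 170.0, 256 and 102 in male knockouts, against 342, 523 and 299 in male controls, wholly below the controls but not called (log2 fold change -1.19, SE 0.37, adjusted p = 0.0677). The male log2 fold change was -1.51 to -0.85 when a library was left out, and it passed without male knockout 2 (adjusted p = 0.0375) and by DESeq2. The male count higher was 4 without male control 1.

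Genes for breaking down collagen gave 0 calls of 16 in females (3 at an unadjusted p under 0.05 by limma, 0 by edgeR, 1 lower by DESeq2) and 1 of 16 in males, the protease inhibitor Timp3 (log2 fold change 0.62, SE 0.17, adjusted p = 0.0462). The Timp3 call was lost by edgeR and without any library except male control 2.

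Of 19 genes of TGF-beta signalling, a pathway that drives fibrillar collagen transcription in fibroblasts, 5 rose in females, beside 9.90% of all genes, and 4 in males, beside 6.08%, and 0 fell in either sex (0 at an unadjusted p under 0.05 in each sex; 0 by edgeR and DESeq2). The male calls were Ccn2, Smad2, Ltbp4 and Smad4. Ski, a repressor of the pathway's Smad proteins, was at 3714, 3787 and 3501 normalized counts in female knockouts, against 2288, 2306 and 2219 in female controls (log2 fold change 0.69, SE 0.08, adjusted p = 0.00154), and kept its call under each alternative tried. Ccn2, the gene for connective tissue growth factor and a target of the pathway, was at 568, 589 and 1013 in male knockouts, against 441, 232 and 351 in male controls (log2 fold change 1.08, SE 0.31, adjusted p = 0.0471). The Ccn2 call was lost by edgeR and without any library except male control 1. The count was 1 to 5 in females when a library was left out, lowest without female knockout 2, and 0 to 3 in males, with 0 without male knockout 1 or male control 3.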

How the data were processed

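Bulk RNA was measured in 12 libraries, 3 in each of the female knockout, female control, male knockout and male control groups, as the labels give them. Per the submitters' processing notes, FastQC 0.11.9, Trim Galore 0.6.7, STAR 2.7.3a, featureCounts and the build GRCm39 (mm39) were used. Strandedness, the release of the annotation and the treatment of multimapping reads are not given in the sources used here. As deposited by the authors, separately for females and males, the signal values are DESeq2 normalized counts, in which reads per gene are divided by the library's size factor. The tables list no gene under 10 reads in total. The log2 fold changes, p-values and Wald statistics (a score per gene) deposited by the authors came from DESeq2, per the file's description sheet, and are not quoted.

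Whole reads were recovered from 100% of values within 0.001. Libraries of 1 group differed by 24.0 to 290.4 times counting noise (mean squared difference), so none was taken as a duplicate. Log2 of the normalized count plus 1 was tested by limma-trend (limma 3.58.1 in R 4.3.3, eBayes with trend and robust on) in each sex, with no term but genotype. Genes with a mean of at least 10 were tested, and p-values were adjusted over them (Benjamini-Hochberg, threshold 0.05). The scripts were tested on simulated data. The alternatives were pseudocounts of 0.5 and 10, no filter, a mean of at least 50, quantile and TMM scaling, edgeR 4.0.16 and DESeq2 1.42.0 on the recovered reads, the replicate number as a block, a fit of the 12 libraries, and leaving out each library.

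Exon lengths came from GENCODE M21 (GRCm38) and promoter windows from RefSeq (GRCm38.p6), printed only over the stretch free of GENCODE exons and not at all where that stretch was short. The collagen members and the gene lists were chosen with earlier results of these data known. The rule named Rnf20, each called collagen, the main chains of types I, III, IV, V, VI, XV and XVIII, the 5 members with the highest mean in each sex, up to 4 called genes of each pathway list, and Adgrg1, Serpinh1, Lox and Sparc. Other collagens were named to account for each member, and Col2a1, Col6a5, Col6a6, Col8a1, Col9a3, Col11a1, Col13a1, Col24a1 and Col26a1 were chosen after their values were seen, as were the ratios of Col8a2 to Col8a1 and of Col9a2 to Col9a3. Genes listed beside a count of 5 or fewer were also named after the values were seen. Dcn and Lum are both in the fibrillar matrix list and among the stellate markers. Some genes of the lists are not reported here.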

Additional observations from a re-analysis of the deposited data

Results flagged for a closer look

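Col26a1, a collagen first described in testis and ovary, differed in opposite directions in females and males. It was at 41.8, 37.6 and 65.8 normalized counts in female knockouts, against 28, 11.6 and 26.8 in female controls, with each knockout library above each control. In males it was at 22.7, 29 and 35 in male knockouts, against 60.7, 119.7 and 44.5 in male controls, with each knockout library below each control. Neither difference passed the threshold (log2 fold change 1.15, SE 0.40, adjusted p = 0.0803 in females, and log2 fold change -1.24, SE 0.56, adjusted p = 0.181 in males). The male minus female difference of the log2 fold change was -2.39 (SE 0.69, 95% interval -3.90 to -0.89). Its unadjusted p by limma was 0.00463, the lowest among the 38 members tested in both sexes, and its adjusted p over 17330 genes was 0.317, so it was not called.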

How the results depend on the processing

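Of the 16 collagen calls, 8 held under every alternative run and 0 changed direction. Over all genes, calls numbered 3745 in females and 2372 in males, against 2408 and 4396 in the fit of the 12 libraries and 3733 in males by DESeq2. With 1 library left out they ranged from 1839 to 3770 in females and from 828 to 2307 in males. Collagen genes called higher ranged from 5 to 6 in females and from 3 to 9 in males (3 without male knockout 1 and 5 without male control 3), and those called lower from 0 to 1 in each sex. The members called lower were Col13a1, without female control 3 or male control 1, and Col6a6, without male knockout 2. The genes called for a sex difference, 19 in all, ranged from 0 to 54.

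The replicate number did not pair the libraries: the correlation of same-numbered deviations was -0.04, -0.28 and -0.13 in females and 0.12, 0.01 and 0.15 in males. With the replicate block, 5 collagen genes were called higher in females and 11 in males, and over all genes 3209 in females, 2062 in males and 0 for the sex difference.

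The male log2 ratio of Col1a1 to Col1a2 differed by -0.35 to 0.30 when a library was left out, and the female ratio of Col6a1 to Col6a2 by -0.0023 to 0.18. Of 1778 alternatives for single genes, 38 changed direction, each for a gene that was not called in that sex. In females Col11a1 had a log2 fold change of 0.030 by edgeR and 0.023 by DESeq2, and Col3a1 of 0.034 with quantile scaling. In males quantile scaling gave -0.22 for Col2a1 and -0.00039 for Col9a3. With 1 library left out, female log2 fold changes ranged from -0.35 to 0.20 for Col11a1, -0.30 to 0.34 for Col3a1, -0.0037 to 0.14 for Col4a1, -0.60 to 0.12 for Col4a3, -0.077 to 0.47 for Col4a5, -0.047 to 0.72 for Col4a6 and -0.22 to 0.37 for Col5a1. They ranged from -0.041 to 0.51 for Col6a1, -0.22 to 0.48 for Col6a2, -0.14 to 0.52 for Col6a3, -0.12 to 0.77 for Col6a5, -0.022 to 0.32 for Col8a1, -0.097 to 0.32 for Timp3 and -0.16 to 0.15 for Serpinh1. The male ones ranged from -0.39 to 0.75 for Col2a1, -0.10 to 0.74 for Col4a3, -0.086 to 0.55 for Col5a1 and -0.13 to 0.38 for Col9a3. The causes were not tested.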

Other observations

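Chromosome 4, which carries Rnf20 at 49632006 to 49656887 (GRCm39), holds 5 tested collagen genes, Col8a2, Col9a2, Col15a1, Col16a1 and Col27a1. In each sex 4 of them rose in knockouts, all but Col16a1. Over all tested genes of chromosome 4, 11.7% were called higher in females and 7.87% in males, beside 9.90% and 6.08% over all chromosomes. The distance from Rnf20 to Col15a1 is 2.32 Mb. These genes were grouped by chromosome after their calls were seen, and the part of their shared chromosome in the result was not tested.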
